A study of Homo sapiens with 5 samples.

Results

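The regions described here are the H2A-K130ac peaks of C4-2B cells on chromosomes 16, 17, 19, 20 and 22. They number 5577 of the 67807 peaks called under abiraterone (8.22%) and 10364 of the 91399 peaks called under Romidepsin (11.3%), or 15941 of 159206 over both lists. The 5 chromosomes were chosen by measured values: each had a low ratio of abiraterone to Romidepsin peaks. That ratio and every count taken from the same peaks are therefore given as a description. For the account below, the chromosomes were divided into fixed windows of 5 Mb counted from their first base.

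ChIP-seq with an antibody against histone H2A acetylated at lysine 130 was performed in C4-2B, used in the study as a prostate cancer cell line, after treatment with abiraterone, which blocks CYP17A1 and so the synthesis of androgens, or with Romidepsin, a histone deacetylase inhibitor. Each treatment has 1 sample, called 1 library here, so no test between treatments was possible. The peak list used for each is the one named optimal, and any list named conservative was left out. Exact 95% intervals cover counting error only. Each peak carries the authors' fold over the control with its −log10 p and −log10 q. How much of each drug these C4-2B cells received before sequencing, and for how long, is not given in the sources used here, as the doses stated for C4-2B belong to ChIP-qPCR. The labels repeat a treatment of VCaP cells and name breast cancer as the cell type. No untreated C4-2B library was analysed here. The paper reports duplicates for its ChIP-seq samples, but whether they were pooled into these lists is not stated. The depth behind each peak is unknown. The submitters' processing notes name hg38, but the last peak on chromosome 1 ends at 249191832, beyond the end of that chromosome in GRCh38 and within it in hg19, and the transcript names are those of UCSC for hg19. Peak coordinates are therefore given as hg19.

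Acetylation removes the positive charge of a lysine in a histone, and acetylated lysines are bound by bromodomain proteins. Histone acetylation is known mostly from promoters and enhancers of transcribed genes. Chromosomes 17, 19 and 22 are known as gene-rich and GC-rich, with short introns and closely spaced promoters, and as lying towards the middle of the nucleus. Gene-poor stretches of the other chromosomes lie more often at its edge.

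Peaks of both lists at a start site are the places where the sequence of a promoter could be set beside both treatments. Of 3435 annotated genes of these chromosomes, 288 had a peak within 1 kb of a start site under abiraterone and 562 under Romidepsin. A peak of each list was found in 43 genes, 14.9% of the 288 and 7.65% of the 562. The number of shared genes to be had by chance was not estimated, so the 43 genes are not read as a set apart. Start-site peaks of the lists overlapped in 8 of these genes, which are ALDOA, DBNDD2, DNAAF9, DUS1L, RBBP6, TANGO2, TSC2 and ZNF778. Of the 6 genes whose peaks lay nearest to a start site, ALDOA and RBBP6 had both peaks within 1 kb of the gene's outermost annotated start. ALDOA encodes the glycolytic enzyme aldolase A. Its abiraterone peak lay at chr16:30075600-30075942 and its Romidepsin peak at chr16:30075738-30076018. RBBP6 encodes a ubiquitin ligase that binds the retinoblastoma protein, and its abiraterone peak at chr16:24548721-24549128 overlapped Romidepsin peaks at chr16:24548798-24548927 and chr16:24549114-24549238. DPH1, an enzyme of diphthamide synthesis, had its Romidepsin peak 100 bp from the outermost start and its abiraterone peak 9762 bp from it, at another transcript. In TSC2, a brake on the growth kinase mTOR, the overlapping peaks lay at the start of an inner transcript, 34683 and 34815 bp from the outermost start.

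The promoters of ALDOA and DPH1 are shown because a peak lay at or near the gene's outermost start, in both lists for ALDOA and in the Romidepsin list for DPH1. RBBP6 met the same condition in both lists, and its promoter is not shown. They are the RefSeq windows of GRCh38.p14, from 250 bases before to 50 bases after the start, and that start can differ from the one in the authors' annotation, which is on another build. Capitals mark matches to GGGCGG, the GC box bound by SP1, or to CCAAT, on either strand.
ALDOA promoter, chr16:30064029-30064328, plus strand: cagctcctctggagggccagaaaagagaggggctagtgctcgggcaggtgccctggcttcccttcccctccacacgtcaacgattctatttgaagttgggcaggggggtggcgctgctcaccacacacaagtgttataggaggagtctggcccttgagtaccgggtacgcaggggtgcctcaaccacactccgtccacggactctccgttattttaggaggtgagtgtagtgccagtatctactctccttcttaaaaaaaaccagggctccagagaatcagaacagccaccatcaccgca
DPH1 promoter, chr17:2029903-2030202, plus strand: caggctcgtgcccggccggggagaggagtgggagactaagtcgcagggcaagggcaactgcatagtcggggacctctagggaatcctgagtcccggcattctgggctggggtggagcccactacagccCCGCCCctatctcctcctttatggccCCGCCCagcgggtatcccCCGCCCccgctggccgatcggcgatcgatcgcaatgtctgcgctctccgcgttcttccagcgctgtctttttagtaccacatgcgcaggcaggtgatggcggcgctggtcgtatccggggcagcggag
The ALDOA window held 0 matches, with 56.0% of its bases G or C and 10 CpG dinucleotides. The DPH1 window held 3 matches to GGGCGG and 0 to CCAAT, so no match overlapped one to the other motif, and 26 CpG dinucleotides. The RBBP6 window, not shown, held 3 matches to GGGCGG, 0 to CCAAT and 35 CpG dinucleotides. Of the 43 genes with a start-site peak in both lists, 37 had a promoter in the RefSeq table. GGGCGG was found in 23 of the 37 (62.2%, interval 44.8 to 77.5%), against 44.6% of all 27305 promoters in the table and 63.5% of the annotated genes of the 5 chromosomes that it holds. The share was thus near that of other genes of these chromosomes. CCAAT was found in 12 (32.4%, against 35.7% and 37.4%), TATAAA in 3 (8.11%, against 11.95% and 7.03%) and CACGTG, the E-box, in 6 (16.2%, interval 6.19 to 32.0%, against 7.43% and 9.98%). TCACNCCAC, a form of the sterol regulatory element, was found in 0 (interval 0 to 9.49%), against 1.15% of all promoters and 1.18% of those of the 5 chromosomes. So rare a motif cannot be judged from 37 promoters. A match is a description of these letters and not a binding site. The shares for the 5 chromosomes cover 2375 of 3435 annotated genes (69.1%), too few for a check of these sets, and are given for scale.

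The count ratio was 0.538 on the 5 chromosomes together (interval 0.521 to 0.556) and 0.768 on all other chromosomes (0.760 to 0.776). It was 0.458 on chromosome 22, with 525 abiraterone and 1146 Romidepsin peaks, and 0.464 on chromosome 20, with 1082 and 2334. Chromosome 19 had 757 and 1469 peaks and a ratio of 0.515, chromosome 16 had 1563 and 2809 and a ratio of 0.556, and chromosome 17 had 1650 and 2606 and a ratio of 0.633. The interval of chromosome 19 overlapped those of chromosomes 16, 20 and 22, while that of chromosome 17, from 0.595 to 0.674, lay above the other 4.

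The name gene-dense held for some of these chromosomes more than for others. Counted as genes nearest to a peak of either list, a measure that depends on the peaks, chromosomes 19 and 17 had 15.96 and 11.6 genes per Mb, the highest values of all. Chromosomes 20, 22 and 16 had 8.36, 7.39 and 7.24. Chromosomes 11, 1 and 12 lay among them with 8.35, 7.58 and 7.36 genes per Mb, and had ratios of 0.786, 0.770 and 0.861. Low ratios were also found on chromosomes of lower gene density, with 0.443 on X, 0.533 on 21, 0.568 on 2, 0.572 on 4 and 0.622 on 6, the last just below the 0.633 of chromosome 17.

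**Figure D1:**
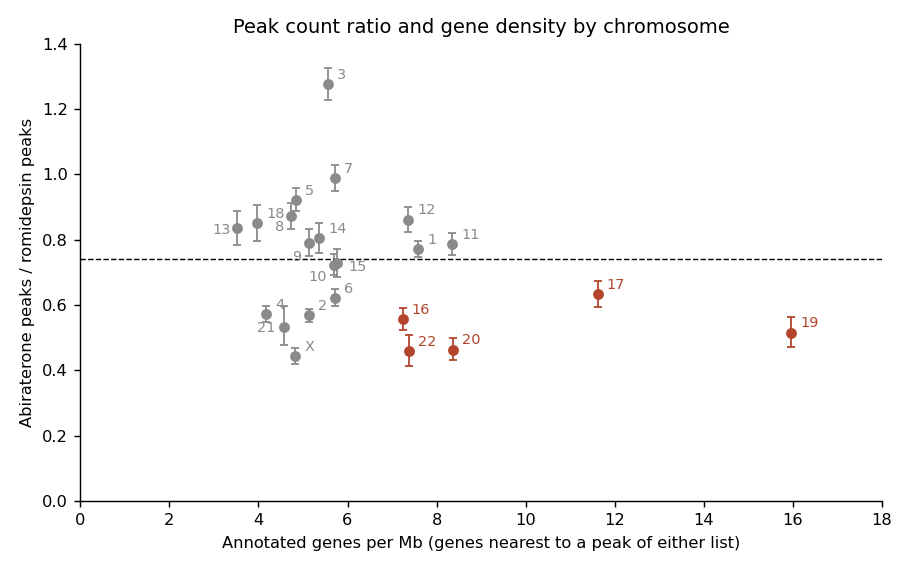
Ratio of abiraterone to Romidepsin peak counts (y axis) against annotated genes per Mb (x axis) for each chromosome except Y; bars are 95% intervals for counting error, the dashed line is the ratio of all peaks, 0.742, and chromosomes 16, 17, 19, 20 and 22 are in red. The 5 red points sit between 0.458 and 0.633, below chromosomes 1, 11 and 12, whose gene density is like that of chromosomes 16, 20 and 22.

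The abiraterone list was sparser on the 5 chromosomes than elsewhere, while the Romidepsin list was about as dense or slightly denser. The abiraterone list had 16.2 peaks per Mb on the 5 chromosomes and 22.9 per Mb elsewhere, a relative density of 0.706 (interval 0.687 to 0.726). The Romidepsin list had 30.1 and 29.9 peaks per Mb, a relative density of 1.01 (0.987 to 1.03). Leaving the largest peak-free stretch of each chromosome out of its length gave 0.748 for abiraterone (0.728 to 0.769) and 1.07 for Romidepsin (1.05 to 1.09). Set against chromosomes 1, 11 and 12 alone, both lists were sparser on the 5 chromosomes, at 0.585 for abiraterone and 0.865 for Romidepsin.

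The 5 chromosomes differed among themselves in the Romidepsin density. Chromosome 20 had 37.1 Romidepsin peaks per Mb, the highest of all chromosomes, with 17.2 abiraterone peaks per Mb. Chromosome 22 had 22.4 and 10.3, counted over a length whose first 17.3 Mb hold no peak, or 33.8 and 15.5 without that stretch. Chromosome 19 was low in both lists with 24.9 Romidepsin and 12.8 abiraterone peaks per Mb. Chromosomes 16 and 17 had 31.2 and 32.1 Romidepsin peaks per Mb and 17.3 and 20.3 abiraterone peaks per Mb.

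The low ratio was found among peaks of larger q-value. A q-value is the share of false calls expected among peaks at least as significant, and a −log10 q of 2 is a q of 0.01. The lists stood at unlike strength on the 5 chromosomes, as they did over all chromosomes. On the 5 chromosomes the median −log10 q was 1.57 for abiraterone and 0.717 for Romidepsin, and 22.1% and 1.74% of the peaks reached 2. Over all chromosomes the medians were the same, and 24.9% and 2.73% of the peaks reached 2. The paper states a q cutoff of 0.01 for its ChIP-seq, which most peaks of both lists do not meet. Counts of all peaks therefore compare lists of unlike stringency. At a −log10 q of at least 2, the 5 chromosomes held 1234 abiraterone and 180 Romidepsin peaks. Their ratio was 6.86, against 6.76 on the other chromosomes, so that the ratio relative to the others was 1.01 (interval 0.862 to 1.19) in place of 0.701 (0.677 to 0.725) for all peaks. On single chromosomes it ran from 6 on chromosome 22 to 8.38 on chromosome 16, and the 5 intervals all held 6.76. At a q of at most 0.05, with 5040 and 987 peaks, the relative ratio was 0.972 (0.905 to 1.04).

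The abiraterone density was low at each strength, and the Romidepsin density was low among the peaks of small q. Relative to the other chromosomes the abiraterone density was 0.716 at a q of at most 0.05 and 0.621 at a −log10 q of at least 2, and the Romidepsin density was 0.736 and 0.612. Below a −log10 q of 2, the values were 0.735 for abiraterone and 1.02 for Romidepsin. Ranking by fold gave another picture: among the 20000 highest folds of each list, 1311 abiraterone and 2300 Romidepsin peaks lay on the 5 chromosomes, at relative densities of 0.553 and 1.02. Single tied values made up much of both lists here. The commonest p-value of the Romidepsin list, a −log10 p of 3.31, was carried by 33.0% of its peaks on the 5 chromosomes and 26.4% elsewhere, and the commonest of the abiraterone list, 4.62, by 19.6% and 13.2%.

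**Figure D2:**
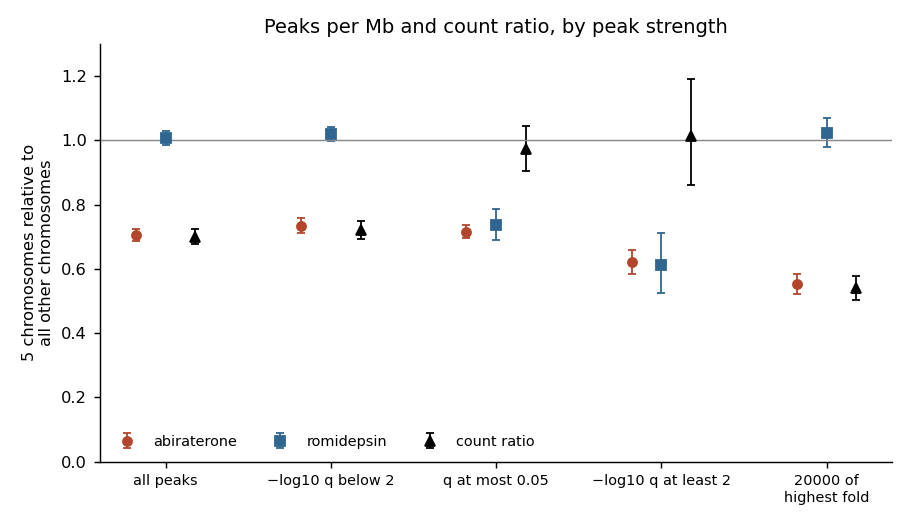
Density of abiraterone peaks (red circles) and Romidepsin peaks (blue squares) and their count ratio (black triangles) on the 5 chromosomes divided by the same on all other chromosomes, for all peaks and for 4 subsets by q or fold; bars are 95% intervals for counting error and the grey line marks 1. The ratio sits at 0.701 for all peaks and at 1.01 at a −log10 q of at least 2, where the densities are 0.621 and 0.612.

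The low ratio was spread over most of the length of the 5 chromosomes. Of the 66 windows with at least 10 peaks, 56 (84.8%) had a ratio below 0.742, that of all peaks, while over all chromosomes 55.8% of windows did. The whole interval lay below 0.742 in 42 windows (63.6%, against 31.5% of all windows) and above it in 2 (3.03%, against 24.7%). The median ratio of the 66 windows was 0.511, with quartiles of 0.430 and 0.648. The chromosomes were chosen for their ratio, so their windows had to be low on average, and the counts describe only how evenly. All 13 windows of chromosome 20 and all 8 of chromosome 22 lay below 0.742, as did 10 of 12 on chromosome 19, 13 of 16 on chromosome 16 and 12 of 17 on chromosome 17.

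**Figure D3:**
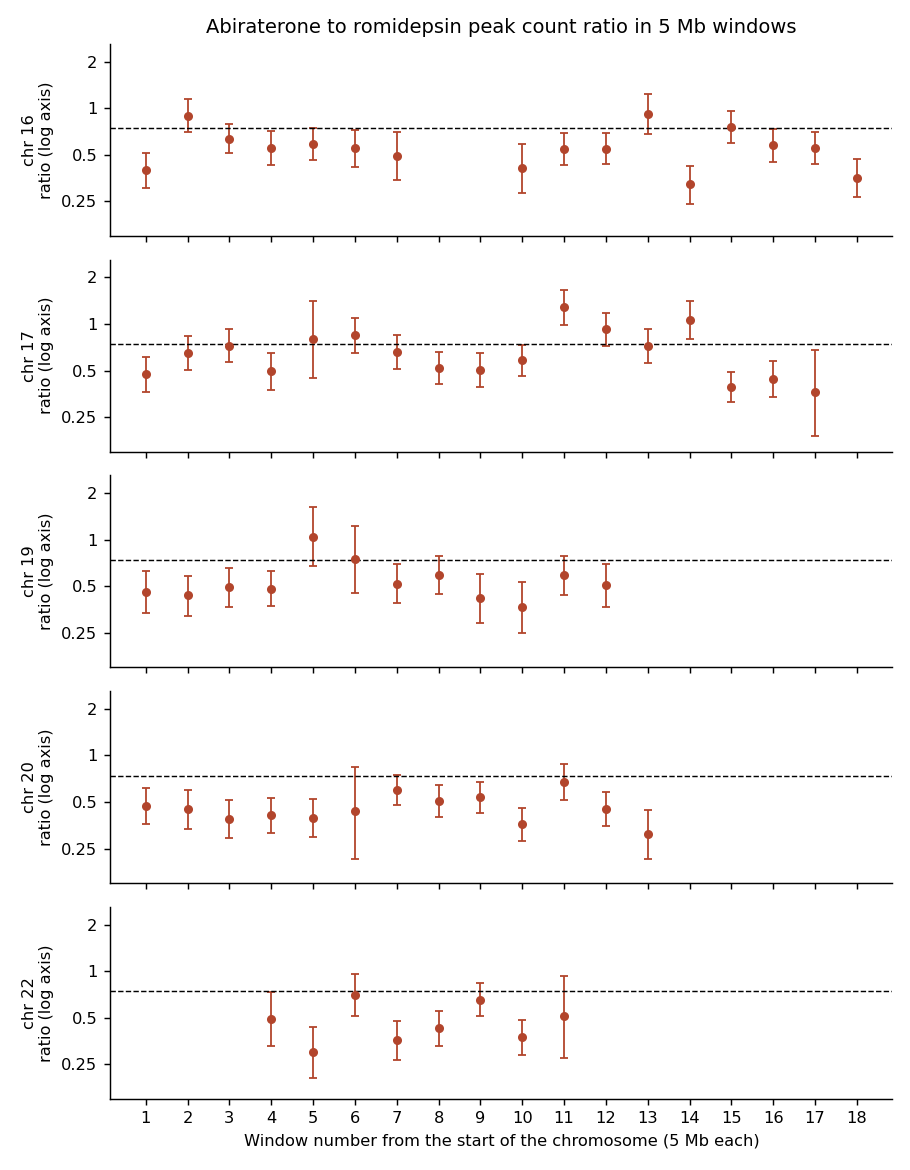
Ratio of abiraterone to Romidepsin peak counts (y axis, log scale) in each 5 Mb window with at least 10 peaks, numbered from the start of the chromosome (x axis), with a panel for each of chromosomes 16, 17, 19, 20 and 22; bars are 95% intervals for counting error and the dashed line is 0.742. Windows 11 and 14 of chromosome 17, at 1.28 and 1.06, are the 2 whose bars lie wholly above the line.

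The 6 lowest windows held 42 to 74 annotated genes. The window chr22:20000001-25000000 had 39 abiraterone and 129 Romidepsin peaks, a ratio of 0.302 (interval 0.206 to 0.436), with 54 annotated genes. The end of chromosome 20 from 60000001 on followed with 41 and 131 peaks and a ratio of 0.313. In chr16:65000001-70000000, with 74 annotated genes, 69 and 214 peaks gave 0.322, and the strongest abiraterone peak there was nearest to TERF2, a telomere-binding protein, with a fold of 4.75. The last full window of chromosome 16 had 68 and 191 peaks, a ratio of 0.356, and its strongest abiraterone peak, with a fold of 6.61, was nearest to ANKRD11, a chromatin regulator. In chr22:30000001-35000000, which holds SYN3, 68 and 190 peaks gave 0.358. In chr20:45000001-50000000 the numbers were 92 and 256 (0.359), and the strongest abiraterone peak, with a fold of 5.63, was nearest to NCOA3, a coactivator of steroid receptors.

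The 6 windows of highest ratio held fewer than 30 annotated genes, with 1 exception. In chr17:50000001-55000000, with 14 annotated genes, 137 abiraterone peaks stood beside 107 Romidepsin peaks (1.28, interval 0.987 to 1.66). Further along the same arm, chr17:65000001-70000000 had 109 and 103 (1.06) with 24 genes. Between them lay the exception, chr17:55000001-60000000, with 131 and 142 peaks (0.923) and 59 genes, among them BCAS3 and MSI2. In chr16:60000001-65000000, where 3 genes were annotated and the strongest peaks lay nearest to the cadherins CDH11 and CDH8, 89 and 97 peaks gave 0.918. In chr16:5000001-10000000, much of which is the gene RBFOX1, 130 and 145 gave 0.897. The window chr19:20000001-25000000, which ends in a peak-free stretch, had 46 and 44 (1.05, interval 0.676 to 1.62).

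Grouped by annotated genes, the full windows away from the peak-free stretches had a lower ratio the more genes they held. The ratio was 0.653 (interval 0.609 to 0.699) in 13 windows with fewer than 30 genes, 0.518 (0.489 to 0.550) in 19 windows with 30 to 59, and 0.491 (0.466 to 0.518) in 23 windows with 60 or more. The windows of the other chromosomes ran the same way, at 0.840, 0.733 and 0.567 in 288, 161 and 33 windows. Within each gene class the 5 chromosomes were lower, and the gap was smallest in the class with most genes. Abiraterone peaks per window went from 105 to 91.0 and 88.2 across the classes on the 5 chromosomes, against 119, 135 and 125 elsewhere. Romidepsin peaks per window went from 161 to 176 and 180, against 142, 184 and 221. Over the 55 full windows the ratio and the number of genes had a Spearman's rho of -0.31, and over 482 full windows of the other chromosomes it was -0.31 as well. The rho between genes and Romidepsin peaks was 0.10 on the 5 chromosomes and 0.57 elsewhere, and that between genes and abiraterone peaks was -0.26 and 0.20. These values are descriptions, since all windows share the same pair of libraries and the genes counted are those nearest to a peak.

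Both arms of each chromosome were low. Arms were divided at the largest peak-free stretch, which on chromosome 22 begins at the first base and leaves 1 arm. The ratio was 0.587 on 16p and 0.533 on 16q, 0.592 on 17p and 0.648 on 17q, 0.508 on 19p and 0.521 on 19q, 0.425 on 20p and 0.489 on 20q, and 0.458 on 22q. All 9 lay below 0.742, and the intervals of the 2 arms overlapped on each of the 4 chromosomes with both. At a −log10 q of at least 2, 4 of the 9 lay below the ratio of all peaks of that strength.

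On the 5 chromosomes together, the share of peaks at promoters, within 3 kb of a start site, was higher than elsewhere in both lists. It was 14.6% of the abiraterone peaks (812 peaks, interval 13.6 to 15.5%) against 6.96% elsewhere, and 15.01% of the Romidepsin peaks (1556 peaks, 14.3 to 15.7%) against 8.06%. Chromosome 19 stood highest, at 26.8% and 25.6%, and its short arm reached 32.1% under abiraterone (27.1 to 37.3%) and 26.2% under Romidepsin (22.9 to 29.7%). Chromosome 17 had 15.9% and 15.7%, chromosome 22 had 15.8% and 15.4%, chromosome 16 had 10.1% and 11.96%, and chromosome 20 had 9.80% and 11.1%. Chromosomes 1, 11 and 12 together had 9.23% (8.77 to 9.72%) and 10.8% (10.4 to 11.3%). The intervals of chromosomes 16 and 20 overlapped these in both lists, while those of chromosomes 17, 19 and 22 lay above them. Intervals of the 2 lists overlapped on each chromosome. Over 23 chromosomes, each a point of the same pair of libraries, rho between the promoter share and genes per Mb was 0.83 for abiraterone and 0.89 for Romidepsin.

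**Figure D4:**
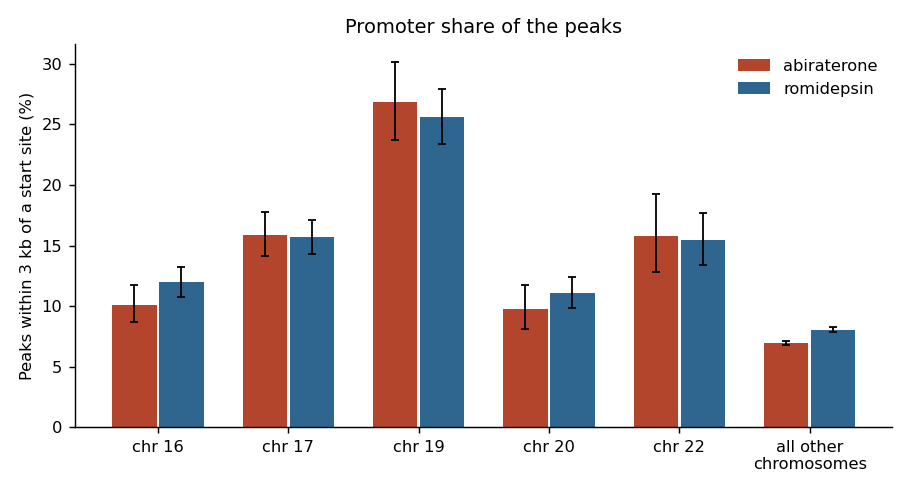
Share of peaks within 3 kb of a start site (y axis, percent) under abiraterone (red bars) and Romidepsin (blue bars) on each of the 5 chromosomes and on all other chromosomes together; error bars are exact 95% binomial intervals. Chromosome 19 reaches 26.8% and 25.6%, against 6.96% and 8.06% on the other chromosomes.

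The ratio was low at promoters and away from them. At promoters it was 0.522 on the 5 chromosomes (interval 0.479 to 0.568) and 0.663 elsewhere, 0.787 times as high, and outside promoters it was 0.541 and 0.777, or 0.696 times as high. By place in the gene, the ratio relative to the other chromosomes was 0.618 in first introns, 0.681 in later introns, 0.680 in exons, 0.639 in 3' UTRs and 0.740 between genes. Exon peaks had the lowest ratio of the larger classes, 0.437 (0.373 to 0.512), with 230 abiraterone and 526 Romidepsin peaks. They were the lowest of these classes on the other chromosomes as well, at 0.643. On the 5 chromosomes their interval overlapped those of 3' UTRs (0.444), first introns (0.489) and promoters. On single chromosomes the promoter ratio ran from 0.411 on chromosome 20, with 106 and 258 peaks, to 0.641 on chromosome 17, with 262 and 409. Intergenic peaks took a smaller part of both lists here, 40.6% and 38.5%, against 49.1% and 49.2% elsewhere.

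The lists shared few sites on these chromosomes. A Romidepsin peak overlapped 221 abiraterone peaks (3.96%, interval 3.47 to 4.51%), against 4.04% elsewhere, and an abiraterone peak overlapped 217 Romidepsin peaks (2.09%, 1.83 to 2.39%), against 3.00% elsewhere. Each share depends on how dense the other list is, and the overlap to be had by chance was not estimated. The 227 overlapping pairs shared a median of 154 bp, and in 2 pairs both peaks had a −log10 q of at least 2. The longest shared stretch, 702 bp, lay in an intron of ANKFN1 at 54372563 on chromosome 17. It was followed by 661 bp at 237082 bp from the start site of MAF, a basic leucine zipper transcription factor, and 626 bp in the 3' UTR of CYB561, a transmembrane cytochrome. Further down, 484 bp were shared in an intron of SPOP, the substrate adaptor of a ubiquitin ligase that is often mutated in prostate cancer. Promoter peaks made up 17.6% of the overlapped abiraterone peaks (12.9 to 23.3%) and 14.4% of the others (13.5 to 15.4%).

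Genes of lipid and androgen synthesis held 15 abiraterone and 20 Romidepsin peaks within the limits of 9 genes, those of the 14 listed that had limits in the annotation. More Romidepsin peaks than abiraterone peaks lay in 7 of them, where 43.6% of all 3435 genes with limits on the 5 chromosomes did, and more abiraterone peaks in 1, where 15.3% did. That 1 gene was ACACA, the acetyl-CoA carboxylase of fatty acid synthesis, with 13 abiraterone and 4 Romidepsin peaks over 325 kb, 3 and 0 of them at a −log10 q of at least 2. ACLY, which makes acetyl-CoA from citrate, held 0 and 3, and HSD17B2, an enzyme that inactivates androgens and oestrogens, and STARD3, a cholesterol transporter, also held 0 and 3. SREBF2, the main regulator of cholesterol synthesis, held 1 and 3, and SREBF1, the regulator of fatty acid synthesis, 1 and 1. FDXR and TSPO each held 0 and 1. FASN, MVD, HSD17B1, HSD17B14 and SULT2A1 had no limits. The shares of 43.6% and 15.3%, here and below, stand for 1499 and 525 of the 3435 genes. That base includes 1159 genes without a peak of either list, whereas each of the 9 genes here held at least 1.

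Genes of histone acetylation and chromatin held 20 and 37 peaks within 14 of 20 genes, with more Romidepsin peaks in 7 and more abiraterone peaks in 4, against 43.6% and 15.3% of all genes with limits. KAT2A, the GCN5 acetyltransferase, held 2 and 1, its partner TADA2A 3 and 1, and KAT7, a MYST acetyltransferase, 1 and 0. DNMT3B, a DNA methyltransferase, held 2 and 1. Of the bromodomain proteins, BRD1 held 0 and 4 and BRD7 1 and 1. CTCF, the insulator protein, held 2 and 6, the corepressor NCOR1 1 and 4, the deacetylase HDAC5 0 and 3, and the acetyltransferase CREBBP 3 and 5.

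Genes of the prostate and the androgen receptor held 35 and 45 peaks within 15 of 18 genes, with more Romidepsin peaks in 6 and more abiraterone peaks in 5, against 43.6% and 15.3% of all genes with limits. The androgen receptor targets KLK2 and KLK3, the second of which encodes prostate-specific antigen, each held 1 and 0, as did HOXB13, the prostate homeobox factor. CDK12, a transcriptional kinase, held 3 and 1. CDH1, the epithelial cadherin, held 0 and 5, and NCOA3 held 1 and 6. ZFHX3, a tumour suppressor of the prostate, held 16 and 16 over 276 kb, 3 and 0 of them at a −log10 q of at least 2. The counts in most of these genes are too small to set the treatments apart within counting error.

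All 8 long genes held more Romidepsin peaks, where 43.6% of all genes with limits did, a base that includes genes without a peak. They held 176 and 363 in all, a ratio of 0.485 (interval 0.403 to 0.582) beside 0.514 (0.491 to 0.538) over all genes with limits. At a −log10 q of at least 2 the direction was the reverse. The long genes then held 44 and 2 peaks, with more abiraterone peaks in each of the 8. All genes with limits held 652 and 96 at that strength. RBFOX1, a neuronal splicing regulator of 1694 kb, held 48 and 53 peaks, or 2.83 and 3.13 per 100 kb. MACROD2, a hydrolase of ADP-ribose marks at a fragile site, held 18 and 72, or 0.875 and 3.50 per 100 kb. WWOX, a tumour suppressor at the fragile site FRA16D, held 20 and 50, the receptor phosphatase PTPRT 27 and 51, and the cadherin CDH13 18 and 39. The synaptic vesicle protein SYN3 held 9 and 33, and the ion channel ASIC2 24 and 33. RBFOX1 and ASIC2 came closest to equal numbers. Among genes with the most peaks, SNX29 had the highest Romidepsin density, 7.87 per 100 kb with 47 peaks, and 21 abiraterone peaks. BCAS3 and MSI2, an RNA-binding protein, both in the part of 17q with high window ratios, held 20 and 17 and 19 and 21. HYDIN, a protein of motile cilia, held 24 and 9, but it has a near-identical copy on chromosome 1, so its count is uncertain.

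**Figure D5:**
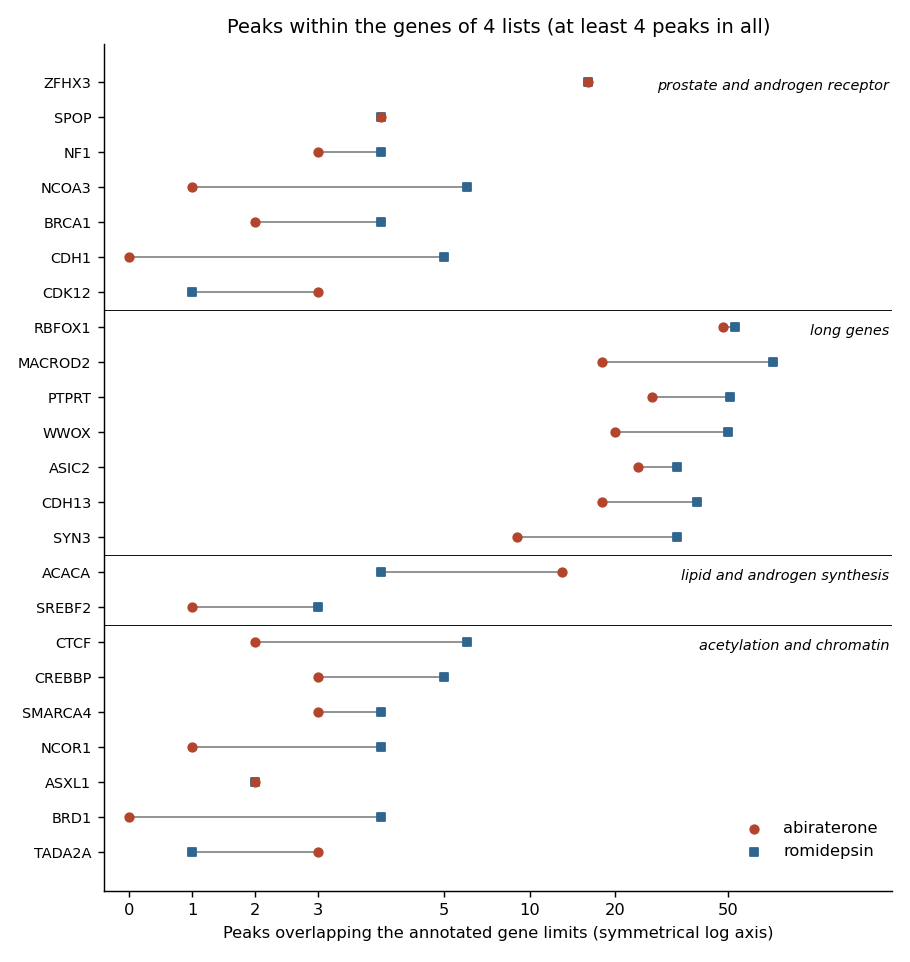
Number of abiraterone peaks (red circles) and Romidepsin peaks (blue squares) overlapping the limits of each gene (x axis, symmetrical log scale), for 23 genes of the 4 lists with at least 4 peaks in all; lines join the 2 counts of a gene. ACACA stands out with 13 and 4, and the 7 long genes drawn hold more Romidepsin peaks. Peaks of any q are counted, and at a −log10 q of at least 2 each of these 7 genes holds more abiraterone peaks.

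Gene families clustered on these chromosomes were counted in the same way. The 183 ZNF zinc finger genes of chromosome 19 with limits held 82 and 138 peaks (ratio 0.594, interval 0.447 to 0.787), with more Romidepsin peaks in 62 (33.9%, against 43.6% of all genes with limits) and more abiraterone peaks in 41 (22.4%, against 15.3%). The 37 keratin and keratin-associated genes of chromosome 17 held 6 and 12 peaks, and 22 of them held none. The HOXB genes held 2 and 7, the metallothioneins of chromosome 16 held 0 and 2, and the APOBEC3 cytidine deaminases of chromosome 22 held 0 and 6. The kallikreins of chromosome 19 held 5 and 4, with more abiraterone peaks in 5 of 11 genes and more Romidepsin peaks in 3, against 15.3% and 43.6% of all genes with limits. The LILR and KIR receptor genes held 2 and 8, the PSG and CEACAM genes 3 and 5, the CCL chemokines 2 and 1, the SIGLEC genes 0 and 1 and the beta-defensins 1 and 1. Related genes can share reads, and how reads with several matches were placed is not given in the sources used here.

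The strongest peaks of the 5 chromosomes were spread over chromosomes 16, 17, 19 and 22. Under abiraterone the highest fold was 12.3, in a 3' UTR at chr19:6006473-6006667 nearest to RANBP3-DT, followed by 10.4 at chr17:75929038-75929196 nearest to LINC01973. RBFOX1 had the third, with a fold of 8.55 in its first intron, and LILRA6, a leukocyte receptor, had one of 8.50. Under Romidepsin 4 peaks tied at the highest fold of 7.84. They were nearest to SIN3B, a scaffold of histone deacetylase complexes, TNRC6B, a protein of microRNA silencing, the drug transporter SLC47A1 and the microRNA gene MIR365A. Of these 8 peaks, the one nearest to MIR365A overlapped a peak of the other list. The folds of the lists stand on scales of their own and were not set against each other.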

How the data were processed

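The peak lists named optimal of H2A-K130ac ChIP-seq in C4-2B cells were analysed, 1 library each for abiraterone and Romidepsin. Per the paper, reads were aligned with Bowtie 2 and peaks called with MACS (MACS2 in the submitters' processing notes), in versions not given in the sources used here. For each peak the authors deposited a score (10 times the −log10 p, cut to a whole number), a fold ratio over the control, −log10 p and −log10 q, and an annotation with the width and the distance to the nearest start site. The first peak of each list lacked annotation; neither lay on the 5 chromosomes. The 3 VCaP samples were not analysed here.

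Peaks were counted per chromosome, arm, window, annotation class and gene with Python 3.11.15, numpy 2.4.6, pandas 2.3.3, scipy 1.17.1 and matplotlib 3.10.9, by code tested on simulated lists. Length ran to the last peak of either list. A gene reached from the first to the last base of its transcripts annotated in either list, so genes nearest to no peak have no limits. Any shared base pair counted as overlap. Intervals of shares and ratios are exact binomial, and those of relative values log-normal. Genes named are 4 lists, gene families, those with the most peaks, those at the highest folds or in extreme windows, and those with start-site peaks in both lists. The members and lists were chosen with earlier results of these data known. BCAS3, MSI2, ANKFN1, MAF and CYB561 were named after their values were seen. A few genes of these lists are not reported here. Alternatives are given in the closing section.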

Additional observations from a re-analysis of the deposited data

How the results depend on the processing

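Of 42 alternatives over 11 results, 15 changed the value by less than its counting interval, 22 moved it and 5 put it on the other side of 1. Crossing 1 was not always a turn of direction. The interval of the relative ratio at a −log10 q of at least 2 held 1 (0.862 to 1.19). So did that of the relative Romidepsin density of all peaks (0.987 to 1.03). Keeping peaks of −log10 q 2 or more, the ratio was 6.86, the ratio relative to other chromosomes 1.01, the relative densities 0.621 and 0.612, the Romidepsin promoter share 13.9%, the windows below the overall ratio 52.6% (30 of 57), the overlapped shares 0.162% and 0.556%, and the arms below it 4. With a q of at most 0.05, the ratio was 5.11, the relative ratio 0.972 and the relative Romidepsin density 0.736, and below a −log10 q of 2 the ratio was 0.426. Among the 20000 peaks of highest fold, the ratio was 0.570, the relative ratio 0.540 and the relative abiraterone density 0.553. Counting base pairs gave 0.484 and 0.653. The relative ratio was 0.659 without chromosome 17, 0.729 without chromosome 20 and 0.677 against chromosomes 1, 11 and 12. Limiting promoters to 1 kb gave shares of 6.28% and 6.13%, and an overlap of 50% of both peaks left 1.26% and 0.675%, both fewer by construction. Without the largest peak-free stretch, relative densities were 0.748 and 1.07. The q of at most 0.05, the −log10 q below 2 and the length without that stretch were chosen after seeing the data. The window share stayed between 84.6% and 89.8% with other window sizes, offsets and filters. Why the ratio depends on q was not tested. No paired analysis was possible because only 1 library stands for each treatment. Without read counts and replicates, the spread between libraries is unknown.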
